A study of Caenorhabditis elegans with 2 samples.

Results

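TRA-1 sites were examined at the neuropeptide and insulin-like peptide genes of *Caenorhabditis elegans*, chosen by name: every protein-coding gene of the Ensembl WBcel235 annotation whose name starts with flp-, nlp- or ins-. They number 140 of the 19973 protein-coding genes on the nuclear chromosomes, with 31 flp, 71 nlp and 38 ins genes. TRA-1 is the zinc-finger transcription factor at the end of the somatic sex determination pathway. Its sites were found by ChIP-seq (chromatin immunoprecipitation followed by sequencing) in 1 group of 2 biological replicates. The antibody was raised against GFP, and the antibody label of both replicates reads tra-1. All animals were of strain DZ840, in which CRISPR inserted biotag::GFP::TEV::3xflag at tra-1 (allele ez72). They were whole L4 larvae aged 48 h, synchronised by hatching into starvation after bleaching, and their sex was not recorded. The chromatin came from whole animals, so binding in a few cells and weak binding in many cells cannot be told apart.

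The 3 families encode secreted signals. The flp genes encode FMRFamide-like peptides, short peptides with an amidated arginine-phenylalanine end that are cut from a longer precursor and released from dense-core vesicles of neurons. The nlp genes encode the other neuropeptide-like precursors and include a group of epidermal antimicrobial peptides, and the ins genes encode insulin-like peptides that raise or lower the activity of the receptor DAF-2. Most of these genes are transcribed in small sets of neurons, and some also in the intestine or epidermis, and several flp genes act in male mating or in egg laying.

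The sequences at 5 of the 6 summits are given so that the DNA around each can be read. That of ins-17 is left out, since it overlaps a UTR. Each covers the summit and 50 bp to each side, on the strand of the peptide gene, from the WBcel235 assembly of RefSeq (the sequence of ce11). Capitals mark the words found out of 4 that were searched on both strands: TGGGTGGTC with at most 1 mismatch (the TRA-1 core), TGATAA (of the kind bound by GATA factors), CTCTCTC and GGTTCGA (a word found within tRNA genes). The sites of nlp-76 and flp-23 carry the tRNA word, read here as its reverse complement TCGAACC, and the site of flp-18 carries the GATA-type word as TTATCA. The sites of ins-39 and of ins-7 and ins-8 carry none of the 4, and no match overlaps another.
nlp-76, chrX:12665220-12665320, minus strand: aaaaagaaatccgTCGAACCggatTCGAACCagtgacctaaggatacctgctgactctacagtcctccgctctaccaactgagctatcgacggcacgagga
flp-23, chrIII:8650391-8650491, plus strand: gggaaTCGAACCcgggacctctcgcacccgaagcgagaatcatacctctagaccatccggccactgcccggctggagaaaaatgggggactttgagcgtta
ins-39, chrX:1345002-1345102, minus strand: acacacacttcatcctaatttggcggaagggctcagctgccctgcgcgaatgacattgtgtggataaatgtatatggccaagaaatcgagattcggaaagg
ins-7 and ins-8, chrIV:9682669-9682769, minus strand: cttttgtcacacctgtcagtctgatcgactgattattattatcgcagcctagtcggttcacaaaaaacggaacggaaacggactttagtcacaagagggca
flp-18, chrX:3020105-3020205, minus strand: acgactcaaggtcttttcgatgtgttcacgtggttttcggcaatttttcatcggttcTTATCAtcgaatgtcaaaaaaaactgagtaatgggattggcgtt

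Few peptide genes were bound. A gene was counted as bound when the summit of a site of the authors' conservative list of both replicates, called the main list here, lay from 2000 bp upstream of the gene's start to its end. By this rule 7 of the 140 genes were bound (5%, 95% Wilson interval 2.44 to 9.96%), against 11.2% of all protein-coding genes. The ins family had the highest share, with 4 of 38 genes (10.5%, interval 4.17 to 24.1%), namely ins-7, ins-8, ins-17 and ins-39. Among flp genes 2 of 31 were bound (6.45%, interval 1.79 to 20.7%), flp-18 and flp-23. Among nlp genes only nlp-76 was bound, 1 of 71 (1.41%, interval 0.249 to 7.56%). The 3 intervals overlap, and the order of the families was not tested. It turned for flp and ins with the 2000 bp upstream region alone (6.45% of flp and 5.26% of ins genes) and with replicate 2 alone (3.23% and 2.63%). The order of flp and nlp turned with replicate 1 alone (0% of flp and 2.82% of nlp genes). It also turned with the 1352 sites of highest signal (0% and 1.41%), so the low place of nlp depends on the rule. The intervals cover counting error only, genes are not samples, and with 1 group of animals no comparison over samples could be made.

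**Figure D1:**
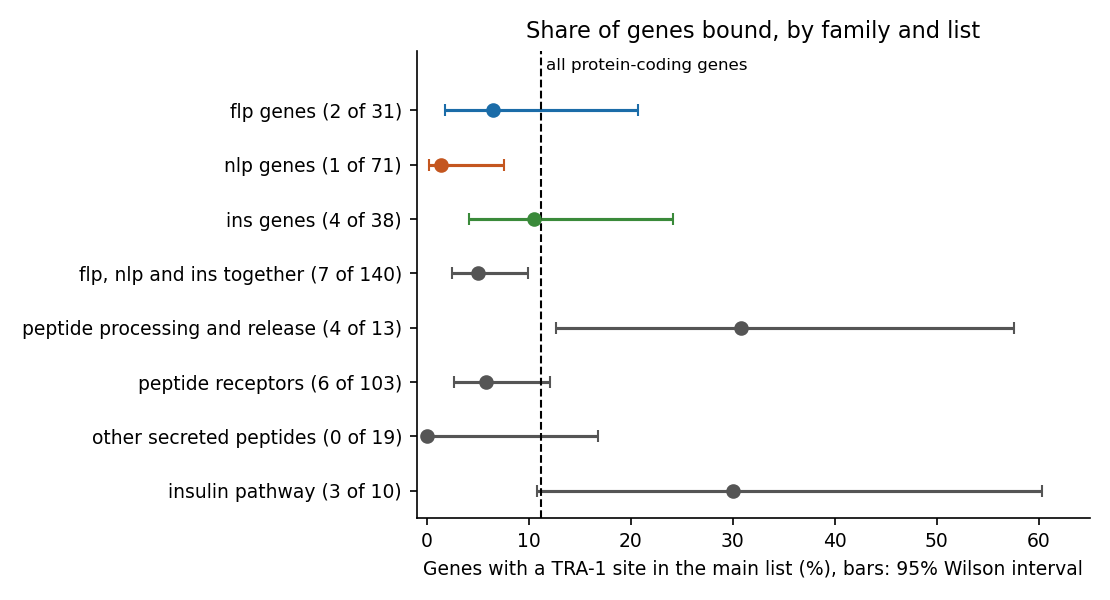
Percent of genes with a TRA-1 site in the main list (horizontal axis) for each peptide gene family and for lists of related genes, with 95% Wilson intervals as bars and the 11.2% of all protein-coding genes as a dashed line. The nlp family lies lowest of the 3 families at 1.41%, and the ins family, at 10.5%, lies next to the dashed line.

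Peptide genes are short, which narrows the window in which a summit counts. The median window was 2649 bp for ins, 2860 bp for nlp and 3186 bp for flp genes, against 4027 bp for all protein-coding genes. Among genes with a window of at most 5000 bp, 8.34% of all protein-coding genes were bound, against 6 of 127 peptide genes (4.72%). In that range 4 of 38 ins genes, 1 of 65 nlp genes and 1 of 24 flp genes were bound. Counted per length, the windows held 37.4 summits per Mb for ins genes, 16 for flp genes and 4.08 for nlp genes, against 27 for all protein-coding genes. All these values count a summit once for every gene window that holds it, as with the shared summit of ins-7 and ins-8. The value for ins genes rests on 4 such counts at 3 sites over 0.107 Mb. Those for flp and nlp genes rest on 2 sites and 1 site, so their order was not tested.

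The 7 bound genes share 6 sites, since 1 summit lies in the windows of both ins-7 and ins-8. Every one of the 6 sites has the highest score that the list gives, 1000, as do 2031 of its 2703 sites. The signal of a site, the authors' own peak value, ranks sites within 1 list only. Of the 6 summits, 4 lay upstream of the bound gene and outside it, the ins-17 summit lay inside its gene, and the shared summit lay inside ins-7 and upstream of ins-8.

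The strongest site lay upstream of nlp-76, on a tRNA gene. Its signal of 179 was the rank 367 of 2703 sites, and its summit on chromosome X at 12665270 was 1367 bp upstream of the nlp-76 start. The summit fell inside an 84 bp tRNA gene on the opposite strand (12665228 to 12665311), which itself lies in an intron of nhr-17, a nuclear hormone receptor gene. The signal was 79.2 in replicate 1 and 95.2 in replicate 2, and the site was in the thresholded list of each replicate alone. nlp-76 (12662478 to 12663903, minus strand) is thus bound by the window rule through a site that also lies within nhr-17, 2584 bp from the start of that gene.

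The flp-23 site also lay on a tRNA gene. Its summit on chromosome III at 8650441 was 326 bp upstream of the flp-23 start (gene at 8650767 to 8652194, plus strand), inside a 72 bp tRNA gene on the opposite strand (8650381 to 8650452). Its signal of 92.5 had rank 1749. The signal was 48.6 in replicate 1, rank 2213 of its ranked list, and 48.2 in replicate 2, rank 1616 of its own. Both summits lay within 1 bp of the main one. The site was in the thresholded list of replicate 2 alone (score 874) and not in that of replicate 1 (score 676, under the 830 that the lists require). The G and C content of the sequence shown for flp-23, 58.4%, was the highest of the 6, against a median of 45.5% over all main sites.

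A tRNA gene lay in the window of 3 peptide genes (2.14%), flp-23, nlp-62 and nlp-76, and of 2.06% of all protein-coding genes. Of those, 2 of the 3 peptide genes and 61.3% of all protein-coding genes were bound. Summits inside a tRNA gene made up 2 of the 6 peptide gene sites and 7.99% of all main sites. With sites within 500 bp of a tRNA gene left out, 5 peptide genes stayed bound (4 ins genes and flp-18) and no nlp gene did, against 10.1% of all protein-coding genes. GGTTCGA was found within 50 bp of the summit at both tRNA sites and at 6.36% of all main sites. It is a word of tRNA genes and was added after the data were seen. At summits inside tRNA genes its presence is therefore no separate evidence. How far tRNA genes account for the calls at nlp-76 and flp-23 was not tested.

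The site of ins-39 was the strongest at an insulin-like gene and the strongest of the 6 away from any tRNA gene. Its signal was 171, rank 419 of 2703. The summit on chromosome X at 1345052 was 631 bp upstream of the ins-39 start (gene at 1343758 to 1344421, minus strand), outside all protein-coding genes, with the nearest other one, ttr-37, 7877 bp away. The signal was 98.7 in replicate 1 and 78.1 in replicate 2, both replicates' own lists held the site, and no other gene's window did. The nearest tRNA gene lay 34551 bp away.

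A single site was shared by the neighbours ins-7 and ins-8. INS-7 is known as an agonist of DAF-2. The summit on chromosome IV at 9682719 lay in an intron of ins-7, 126 bp inside the gene from its start (gene at 9682011 to 9682845, minus strand), and 1778 bp upstream of the ins-8 start (9680337 to 9680941, minus strand). It had a signal of 111, rank 1224. Its signal was 64.3 in replicate 1 (rank 1224 of the ranked list, score 1000, in that replicate's list) and 48.5 in replicate 2 (rank 1581, score 442, not in its list). The replicate 2 summit lay 57 bp from the main one. An snRNA gene, ZK1251.14, starts 160 bp from the summit, beyond the ins-7 start. The nearest other protein-coding gene, htas-1, ends 265 bp from the summit. The site also fell in the upstream window of ZK1251.3, 939 bp from its start.

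The ins-17 site lay at the far end of its gene. INS-17 is known as an antagonist of DAF-2. The summit on chromosome III at 4477005 was 567 bp inside the 655 bp gene (4476918 to 4477572, minus strand), in its 3' UTR, and 129 bp past the end of the convergent ribosomal protein gene rps-1. It was also in the upstream window of ifet-1, a regulator of translation, 1855 bp from its start. Its signal of 84.2, rank 2068, was the lowest of the 6. Neither replicate's own list held it: the signal was 38 in replicate 1 (score 61) with a summit 127 bp from the main one, and 52.6 in replicate 2 (score 258).

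The flp-18 site lay farther from the next TRA-1 site than the rest of the 6, where that distance was 1351 to 7812 bp. FLP-18 peptides act through several receptors and link feeding state to movement and fat storage. The summit on chromosome X at 3020155 lay 1600 bp upstream of the flp-18 start (gene at 3012182 to 3018555, minus strand), 4908 bp from the nearest other protein-coding gene, aqp-7, and 11584 bp from the next TRA-1 site. Its signal was 89.9, rank 1824, with 53.4 in replicate 1 (score 804) and 43 in replicate 2 (score 553). Neither replicate's own list held it. It was the single site of the 6 with TGATAA within 50 bp of the summit, a word found at 19.3% of all main sites.

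**Figure D2:**
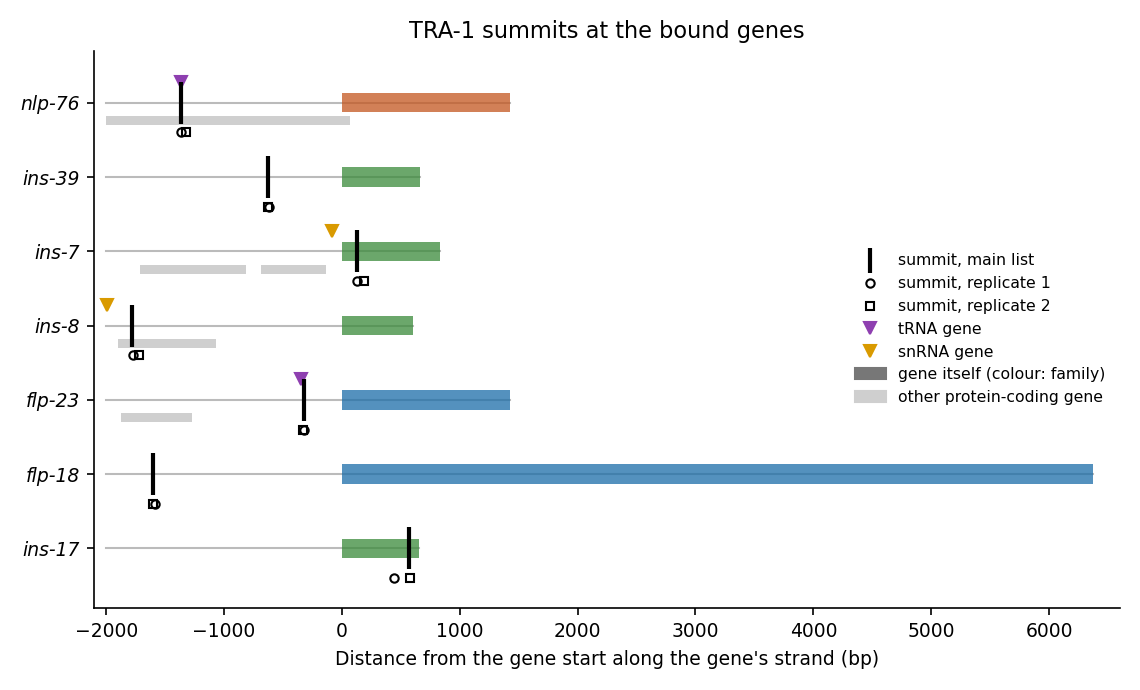
TRA-1 summits at the 7 bound peptide genes, drawn from 2000 bp upstream of each gene's start to its end (horizontal axis, bp along the gene's strand). Black bars mark main list summits, open circles and squares the summits of replicate 1 and replicate 2, triangles tRNA and snRNA genes, and grey boxes other protein-coding genes; the summits of nlp-76 and flp-23 coincide with tRNA genes.

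No peptide gene site held the TRA-1 core. Allowing 1 mismatch, TGGGTGGTC was found within 50 bp of 0 of the 6 summits and of 2.15% of all main summits. In the whole peak it was at 0 of 6 sites and at 4.59% of all. At such shares a set of 6 sites is too small to tell 0 from the rest of the list. CTCTCTC was also at 0 of 6, against 8.44%. All 6 peaks were 304 bp wide, which is the median width of the main list.

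The signals of the 2 replicates come from separate lists and are given side by side. Their ratio, replicate 1 to replicate 2, ran from 0.723 at ins-17 to 1.32 at the site of ins-7 and ins-8, and its median over all main sites with a peak in both was 1.17. Of the 6 sites, 2 were in both replicates' own lists (nlp-76 and ins-39), 1 was in that of replicate 1 alone (ins-7 and ins-8), 1 in that of replicate 2 alone (flp-23) and 2 in neither (flp-18 and ins-17). Of all main sites 35.3% were in both and 34.6% in neither. By gene, the list of replicate 1 alone bound 5 peptide genes, against 7.6% of all protein-coding genes, and that of replicate 2 alone bound 3, against 6.22%. The genes bound in both were ins-39 and nlp-76.

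**Figure D3:**
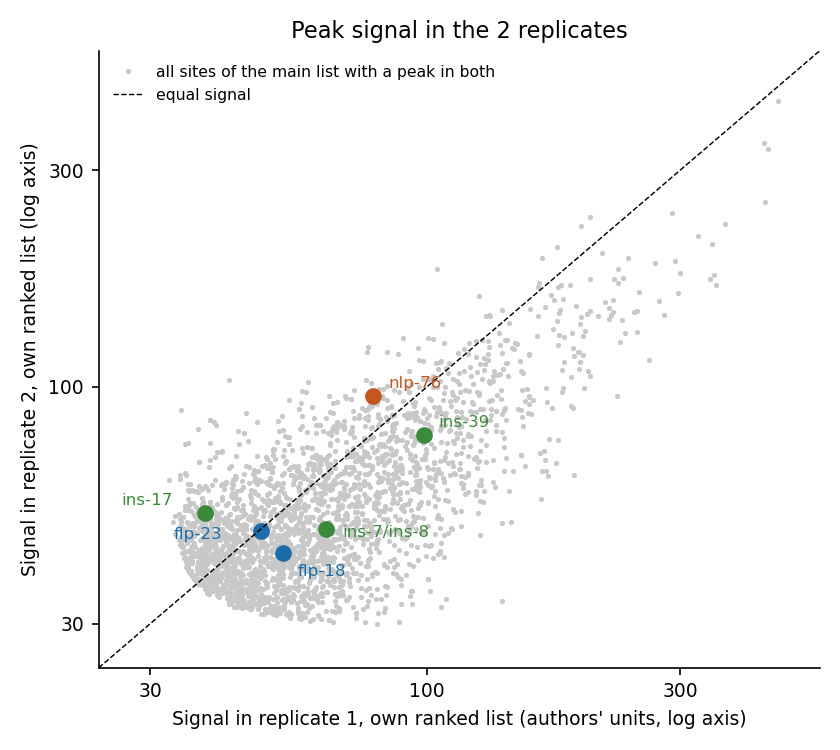
Peak signal of each main list site in replicate 1 (horizontal, log axis) and replicate 2 (vertical, log axis), in the authors' units, taken from the peak of highest signal that overlaps the site in the ranked list of that replicate. Grey points are all main sites with a peak in both and coloured points the 6 peptide gene sites, of which nlp-76 and ins-39 have the highest signals in both replicates.

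The bound genes divide by the part of the window that holds the summit. With the 2000 bp upstream region alone, 5 peptide genes were bound (flp-18, flp-23, ins-8, ins-39 and nlp-76), against 7.81% of all protein-coding genes. With the gene body alone 2 were bound (ins-7 and ins-17), against 4.12%. The summit nearest to the upstream limit among bound genes was that of ins-8, at 1778 bp, followed by flp-18 at 1600 bp. Just outside the window of nlp-4 lay a site 95 bp past its end (signal 269), in the windows of che-13, F59C6.18 and exos-3. Another lay 196 bp past the end of nlp-40 (171), in the window of no protein-coding gene. nlp-40 encodes a peptide released by the intestine in the defecation rhythm. Further out, sites lay past the ends of ins-37 (590 bp, signal 234), nlp-1 (821 bp, 106), ins-13 (863 bp, 264) and flp-20 (1518 bp, 84.9). They lay in the windows of F08G2.5, aex-4, C17C3.24 and oga-1, in that order. The gene flp-20 is known to act in touch responses and in male turning. The next on the upstream side were near nlp-80 (3902 bp upstream, 110), flp-19 (4675 bp, 86.3), flp-14 (5307 bp, 246) and ins-10 (5445 bp, 84.2). All but the site near flp-19 lay in the window of another gene, namely T04C12.8, cox-5A and T08G5.3 in that order. Of the 133 unbound peptide genes, 5 had a summit within 1000 bp of the window (3.76%) and 23 within 8000 bp (17.3%), against 4.97% and 27.2% of all unbound protein-coding genes. The median distance from the window to the nearest summit was 21139 bp, against 18651.5 bp for all unbound protein-coding genes.

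The second thresholded list of both replicates, which holds 3168 sites, bound 9 peptide genes, against 12.9% of all protein-coding genes. It held the same 7 genes and added nlp-19 and nlp-26. The 2 replicates differed at nlp-19. Its peak, 1273 bp upstream of the start, had a signal of 69.6 in replicate 1, whose own list held it. In replicate 2, whose own list did not, the strongest peak in the window had a signal of 15.4. In the ranked list behind the main list the nlp-19 peak had a signal of 87.6, above that of ins-17, and a score of 73. The nlp-26 peak, 1450 bp upstream, had a signal of 64.7, with 32.3 in replicate 1 and 34.2 in replicate 2.

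The ranked list, which holds peaks of any score, had a peak in the window of 103 of the 140 peptide genes (73.6%), against 80.3% of all protein-coding genes. By family this was 64.5% of flp, 81.7% of nlp and 65.8% of ins genes. The median signal of the strongest such peak was 41.2 for flp, 41.8 for nlp and 43.1 for ins genes, against 45.5 for all protein-coding genes. Over unbound genes alone it was 41 for peptide genes and 42.8 for all protein-coding genes. The windows of peptide genes are shorter (median 2888 bp against 4027 bp), and these values are not adjusted for that. Among unbound peptide genes the strongest after nlp-19 were ins-13 (67, score 762), nlp-26 (64.7, score 501) and the neighbours ins-5 and ins-6. The peak of ins-5 and ins-6 is shared (62.1, score 455). No peptide gene had a ranked peak that passed the score and was left out of the main list.

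**Figure D4:**
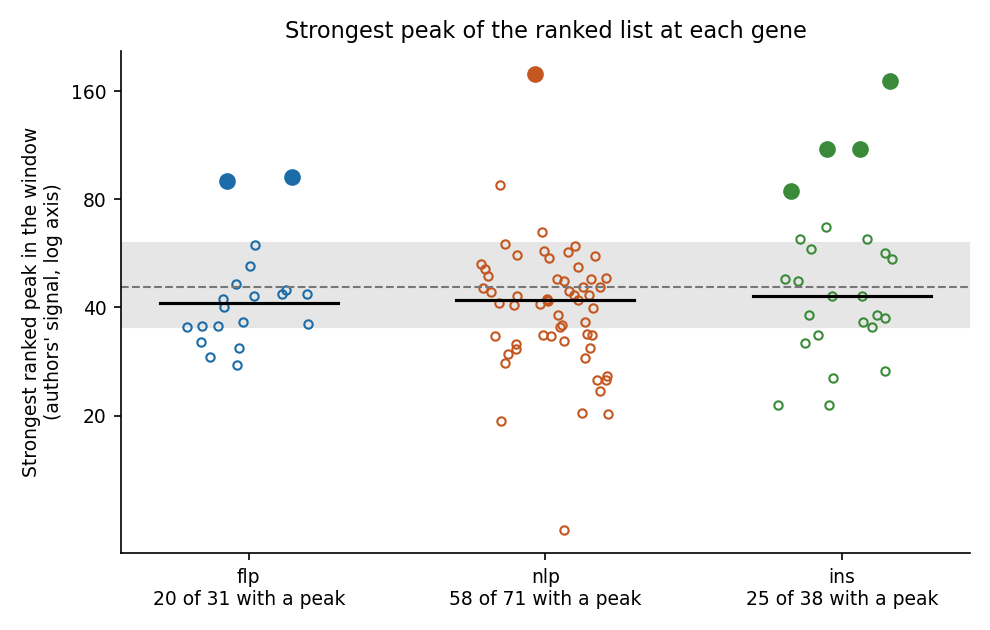
Signal of the strongest ranked peak in the window of each peptide gene (vertical, authors' units, log axis), by family, with bound genes as filled points, unbound genes as open points and the family median as a black bar. The dashed line and grey band give the median (45.5) and the middle 50% of all protein-coding genes, and the unbound genes of all 3 families lie mostly within or below the band. The band includes bound genes, and the windows of all protein-coding genes are longer (median 4027 bp against 2888 bp).

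The bound genes lay on chromosomes III, IV and X. X carries 34 of the 140 peptide genes, of which 3 were bound (flp-18, ins-39 and nlp-76), against 16.4% of all protein-coding genes on X. The ins genes are concentrated on I and II, with 25 of 38 there, and 0 of these 25 were bound. This was not particular to ins: 0 of 5 flp and 0 of 17 nlp genes of I and II were bound. On V, 0 of 23 peptide genes were bound, against 7.85% of all protein-coding genes there. Of the 6327 protein-coding genes of I and II, 719 were bound (11.4%). Grouping I with II was not planned, and the 0 was not tested. The other 13 ins genes, on III, IV, V and X, include the 4 bound ones, at 3 sites. Leaving out chromosomes without a bound ins gene raises the share of the rest, so none is given here. Over all chromosomes 10.5% of ins genes and 11.2% of all protein-coding genes were bound. Many ins genes sit in tandem: 22 lie within 5000 bp of another peptide gene, in 9 groups, of which only the pair ins-7 and ins-8 had a site. None of the 6 neighbouring antimicrobial genes from nlp-27 to nlp-34 on V had one. Groups of neighbouring genes outside the peptide families were not counted, so these counts have no share beside them and show nothing particular to such groups.

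By known role, no list of peptide genes other than the insulin-like ones had a bound member. The counts were 0 of 11 for nlp-24 to nlp-34, which include the epidermal antimicrobial peptides induced by fungal infection and allow a share of up to 27.3%. They were 0 of 6 for genes that act in sleep (flp-11, flp-13, flp-24, nlp-8, nlp-14 and nlp-22) and 0 of 5 for genes that act in egg laying (flp-1, flp-10, flp-17, nlp-3 and nlp-7). They were 0 of 4 for genes that act in male turning during mating (flp-8, flp-10, flp-12 and flp-20). Lists of this size cannot tell 0 from the 11.2% of all genes. Of 5 ins genes listed as agonists of DAF-2, 1 was bound (ins-7, Wilson interval 3.62 to 62.4%). Of 4 listed as antagonists, 2 were (ins-17 and ins-39, Wilson interval 15 to 85%). The ins-39 site was in both replicates' own lists, the ins-7 site in that of replicate 1 alone and the ins-17 site in neither. The intervals overlap, and the difference was not tested. Both lists were chosen with earlier results known, so their shares do not stand for all agonists or antagonists.

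Genes that act with the peptides were bound in varying number. Of 13 genes of peptide processing and release, 4 were bound (30.8%, 95% Wilson interval 12.7 to 57.6%), each at 1 site, against 11.2% of all protein-coding genes. They were ida-1, a dense-core vesicle protein gene (signal 97.9, in an intron), egl-3, the proprotein convertase gene (85.9, at 1114 bp upstream), sbt-1, which encodes the chaperone of that convertase (77.9, at 85 bp upstream, shared with num-1), and pgal-1, an amidating enzyme gene (77.7, in a coding exon). The windows of these genes are long, with a median of 7035 bp, and held 35.7 summits per Mb, against 27 for all protein-coding genes. The site of ida-1 was in the list of each replicate, that of egl-3 in replicate 2 alone, and those of sbt-1 and pgal-1 in neither.

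Of 103 peptide receptor genes, 6 were bound (5.83%, interval 2.7 to 12.1%), against the 11.2% of all protein-coding genes. Their windows, with a median of 5828 bp against 4027 bp for all protein-coding genes, held 7.91 summits per Mb against 27. The bound genes were npr-15 (signal 131, at 927 bp upstream), gnrr-3 (100.6, in an intron), frpr-11 (85.5, at 1382 bp upstream), sprr-2 (82.6, in an intron), npr-13 (77.3, in an intron) and npr-23 (74.7, within vps-4). The npr-15 site was in both replicates' lists and the gnrr-3 site in that of replicate 2, while the other 4 were in neither. No gene was bound among 19 other secreted peptide genes, such as daf-28, pdf-1 and the cnc antimicrobial genes, which allows a share of up to 15.8%. In the insulin pathway downstream of the ins peptides 3 of 10 genes were bound (30%, interval 10.8 to 60.3%, against the same 11.2%), namely daf-16, akt-2 and pdk-1, and the receptor gene daf-2 was not. These windows are long, with a median of 8962 bp, and 5 of their 7 sites lay at daf-16. The strongest sites of akt-2 and pdk-1 had signals of 124 and 123, and that of daf-16, the transcription factor gene, had 191.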

How the data were processed

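The peak lists are on the ce11 build and, per the descriptions deposited with the files, derive from alignments of the replicates and a control. Each peak has a score deposited by the authors, higher where the irreproducible discovery rate (IDR) is lower; the thresholded lists start at a score of 830, or an IDR near 0.01. Its signal is likewise the authors' deposited value. Neither the aligner nor the program that called peaks is named in the sources used here. The control was not analysed here. No list gives reads, so depth is unknown.

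Summits were placed on WBcel235 (Ensembl release 115), the same assembly as ce11, in 1-based coordinates. Replicate values were read from the peak of highest signal overlapping the site in the ranked list of that replicate. The assignment of summits was tested on simulated data. Since the study has 1 group, no test was run; shares have 95% Wilson intervals. The text names all bound peptide genes, the 10 unbound ones nearest to a site, the 5 with the strongest ranked peak and the bound genes of the related lists. The members and lists were chosen with earlier results of these data known. One planned name, rab-2, had no match, and precursor proteins, also planned, are not shown. The tRNA word, the 5000 bp limit on windows and the count without tRNA sites were added after the data were seen. The tools were Python 3.11.15 with pandas 2.3.3, numpy 2.4.6, matplotlib 3.10.9 and scipy 1.17.1.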

Additional observations from a re-analysis of the deposited data

How the results depend on the processing

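The 12 alternative rules for calling a gene bound were applied to the families, the peptide processing, receptor and other secreted peptide lists and the insulin pathway, and the limit on windows to the families. The lists by known role were counted under the main rule alone. The share of all protein-coding genes bound, 11.2% in the main list, was 8.92% at the highest score, 12% with any base of the peak, 16.6% with 5000 bp upstream, 10.3% with the nearest start only, 6.4% with the 1352 sites of highest signal and 8.83% with 1000 bp upstream. The count of bound peptide genes, 7, stayed at 7 with sites at the highest score or with any base of the peak counted, and was 9 with the second list, with 5000 bp upstream or with the nearest start only, 5 with the promoter only or without tRNA sites, and 6 with windows of at most 5000 bp. It was 4 with the 1352 sites of highest signal or with 1000 bp upstream, and 2 with the gene body only. Leaving out 1 replicate gave 3 to 5 genes, at 3 to 4 sites in place of 6.

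For flp the count was 2, also with the promoter only, and 0 to 1 with 1 replicate left out. It was 0 with the 1352 strongest sites or the gene body only. With 1000 bp upstream, without tRNA sites or with windows of at most 5000 bp it was 1. With 5000 bp upstream or the nearest start only it was 3. For nlp the count was 1, and 1 to 2 with 1 replicate left out, 3 with the second list, 2 with 5000 bp upstream or the nearest start only, and 0 with 1000 bp upstream, the gene body only or without tRNA sites. For ins the count was 4, and 1 to 3 with 1 replicate left out. It was 3 with the 1352 strongest sites or with 1000 bp upstream, and 2 with the promoter only or the gene body only.

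For peptide processing and release, 4 became 1 to 2 with 1 replicate left out. The count was 2 at the highest score, with the promoter only or the gene body only, and 0 with the 1352 strongest sites. It was 3 with 1000 bp upstream or without tRNA sites, and 5 with any base of the peak. With the nearest start only it was 6, and with 5000 bp upstream 7. For receptors, 6 became 1 to 2 with 1 replicate left out, 1 with the 1352 strongest sites, and 3 with the promoter only or the gene body only. The count was 4 at the highest score and 5 with 1000 bp upstream or without tRNA sites. It was 7 with 5000 bp upstream and 9 with the nearest start only. For the insulin pathway, 3 became 1 with the gene body only, 2 with replicate 2 left out or with 1000 bp upstream, and 4 with 5000 bp upstream. TGATAA lay at 2 sites with 100 bp to each side or in the whole peak, in place of 1. The cause of these changes was not tested beyond what each rule counts. Depth is unknown, so what it limits cannot be stated.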
